A study of Bos taurus with 22 samples.

Results

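The miR-29 family in bovine plasma is described here through its 3 mature miRNAs, bta-miR-29a, bta-miR-29b and bta-miR-29c (bta stands for Bos taurus and is left out from here on). They were taken by name from the deposited table of read counts, which lists 844 mature miRNAs, 611 of them bovine and 233 human homologues. All 3 members passed the filter on low levels, which left 195 miRNAs for testing. The study sequenced small RNA from plasma of 11 Holstein-Friesian heifers, each sampled on Day 60 of pregnancy and on Day 0, the day of insemination, which gave 22 libraries. The heifers had never been inseminated before, were oestrus-synchronised, and served as their own non-pregnant baseline, so that the time between samplings and pregnancy cannot be told apart. Blood was taken from the jugular vein into EDTA tubes. A synthetic worm miRNA was spiked into every plasma sample at extraction and is not used here.

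MicroRNAs of this family pair with messenger RNAs through the bases near their 5′ end, which members of the family share, and are best known as repressors of the extracellular matrix. In human and mouse cells their targets include the fibrillar collagens, elastin and fibrillin, and transforming growth factor beta lowers them during fibrosis. They also repress DNA methyltransferases, and in human cells miR-29b carries a short signal at its 3′ end that sends it to the nucleus. Pregnancy remodels the matrix of the uterus and of the attaching placenta, which gives interest to the plasma level of these miRNAs, although plasma collects miRNA from many tissues and from blood cells. A plasma level does not tell apart the number of source cells and the amount each releases.

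The deposited positions, on the bosTau4 assembly, placed miR-29a on chromosome 4 from 97826812 to 97826834 and miR-29b on the same strand from 97827194 to 97827216, 360 bases apart. Both lie on the minus strand. miR-29c was placed on the plus strand of chromosome 16 from 73887270 to 73887291. The nearest listed miRNA of another family was miR-335 for miR-29a and miR-29b, at a distance of 333121 and 333503 bases, and miR-205 for miR-29c, at 1803951 bases. The nearest listed miRNA to miR-29c was its relative miR-29d-5p, at 83114 bases. RefSeq names 6 miR-29 hairpin genes on the ARS-UCD2.0 assembly, of which 2 are for miR-29b, one beside MIR29A and the other beside MIR29C. Reads of miR-29b from the pair of genes share a row and cannot be told apart. Mature miR-29a and miR-29c differ little in sequence and reads were assigned with a mismatch allowed, so the split of reads between them carries some uncertainty.

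Total miRNA reads ran from 304117 to 12775451 in Day 60 libraries, with a median of 7597827, and from 1912290 to 6839128 in Day 0 libraries, with a median of 4536808. The shallowest was the Day 60 library of heifer 17, so results that turn on it are given with and without this heifer. Plasma held the red cell miRNAs miR-486 and miR-451 in abundance on both days, with miR-144 far lower. The summed level of 6 erythroid miRNAs ran from 134033 to 388765 RPMM on Day 60 and from 74510 to 346917 RPMM on Day 0, and none of the 6 was at 0 reads. RPMM are reads of a miRNA per 1000000 miRNA reads of the library. Of these 6, miR-451 and miR-16b were higher on Day 60 at the threshold used below and 0 were lower, beside 35.4% of all tested miRNAs that passed, 17.4% higher and 17.9% lower. Of the 6, 0 passed with library totals, with upper quartile factors, or without heifer 10, 11, 14, 17, 26, 28, 29 or 31. With the filter on every library, 5 of them were tested and 0 passed. The ratio of miR-451 to miR-23a reads, which rises with red cell lysis, ran from 4.36 to 27.7 on Day 60 and from 0.935 to 13.4 on Day 0. Its median was 8.56 on Day 60 and 1.83 on Day 0. The paper took a ratio under 5 as absence of haemolysis, in plasma samples that were not all sequenced. It reported that most samples were under 5. Its text does not give the scale of that ratio, so the cut-off need not carry over to read ratios. The read ratio was under 5 in 2 of 11 libraries on Day 60 and in 8 of 11 on Day 0. miR-23a itself was lower on Day 60 (log2 fold-change -1.18, edgeR FDR 0.00837), which moves this ratio as well. Among other markers, 3 of 8 leukocyte miRNAs were higher and 0 were lower, where 1 was higher with library totals or without heifer 28 and 0 with an erythroid covariate. Over all 195 tested miRNAs, 11 were higher with library totals, 17 without heifer 28 and 6 with that covariate. At the same threshold 0 of 2 tested hepatocyte and 0 of 1 tested muscle miRNAs differed. The hepatocyte miR-122 did not pass the filter, and averaged 2122 ± 6873 RPMM on Day 60 and 50.1 ± 37.5 RPMM on Day 0 (SD, n = 11 each). The tested muscle miRNA, miR-133a, had an SE of 1.01 on the log2 scale, so a change could easily be missed. Of 4 tested mesenchymal miRNAs miR-143 was higher and miR-199a-5p was lower.

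miR-29a was the main plasma member of the family. Its level had a lowest value of 2969.7, a median of 4045 and a highest value of 7440 RPMM in Day 60 libraries, against 3126, 3907 and 6483 RPMM in Day 0 libraries. The days overlapped almost fully. On Day 60, 5 heifers (11, 28, 24, 17 and 14) had levels of 5632 RPMM or more and the other 6 had 4045 RPMM or less. The mean was 4665 ± 1554 RPMM on Day 60 and 4313 ± 1127 RPMM on Day 0 (SD, n = 11 each). miR-29a ranked 27th to 43rd among all miRNAs of a Day 60 library and 31st to 40th in a Day 0 library. These levels came from 1802 to 51015 reads of miR-29a in Day 60 libraries and from 6966 to 27047 reads in Day 0 libraries.

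miR-29c, the member of chromosome 16, lay several-fold lower. Its lowest, median and highest levels were 428, 676 and 1391 RPMM in Day 60 libraries, against 616, 688 and 1008 RPMM in Day 0 libraries. The highest value belonged to heifer 17 on Day 60, and the next Day 60 library, that of heifer 11, was at 918 RPMM. Heifers 31, 26 and 14 had the lowest Day 60 levels, below every Day 0 library. The mean was 709.7 ± 263 RPMM on Day 60 and 756 ± 127 RPMM on Day 0 (SD, n = 11 each). Without heifer 17 the Day 60 mean was 642 ± 143 RPMM (SD, n = 10).

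miR-29b, whose listed gene lies beside that of miR-29a, was the scarcest member. Its lowest, median and highest levels were 38.2, 54.8 and 148 RPMM in Day 60 libraries, against 46.6, 58.1 and 81.6 RPMM in Day 0 libraries. The value of 148 RPMM was again that of heifer 17 on Day 60, and rested on 45 reads of 304117. Its 95% Wilson interval, 111 to 198 RPMM, lay above the level of miR-29b in every other library. The next highest was heifer 11 on Day 60 with 84.1 RPMM. Such intervals cover counting error only. The mean was 62.8 ± 30.9 RPMM on Day 60 and 63.1 ± 11.9 RPMM on Day 0 (SD, n = 11 each), and the Day 60 mean was 54.3 ± 13.1 RPMM without heifer 17 (SD, n = 10). Other libraries held 130 to 512 reads of miR-29b.

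**Figure D1:**
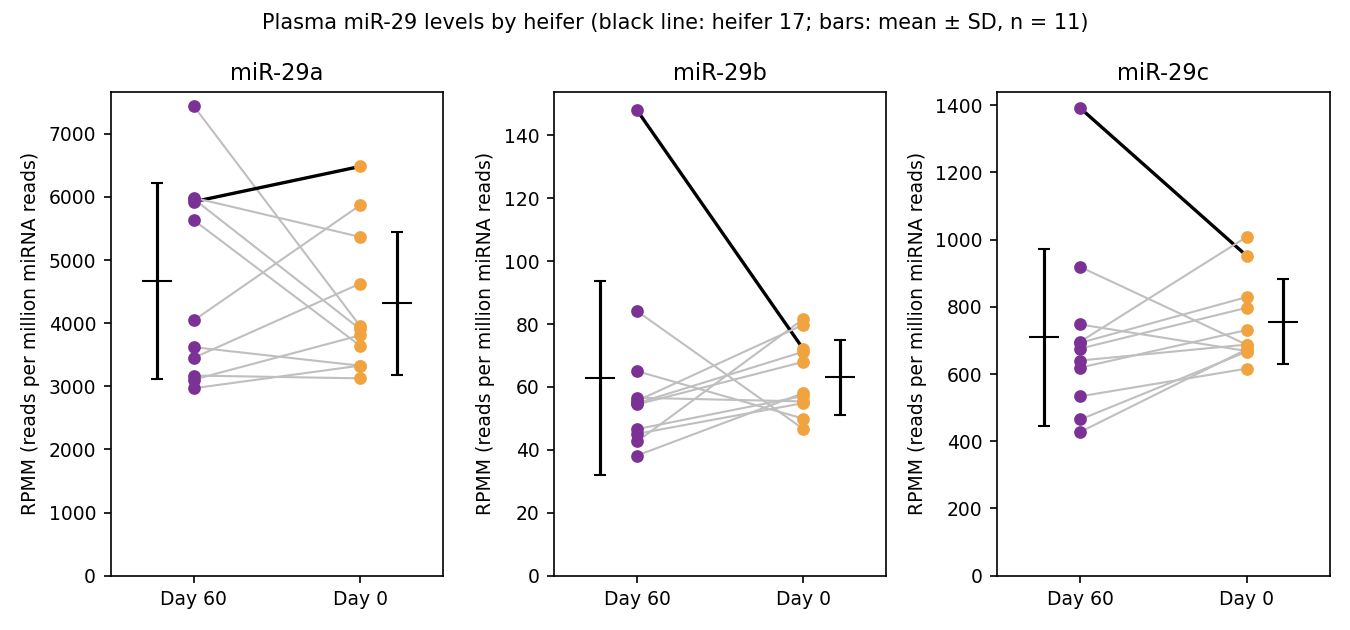
Level of miR-29a, miR-29b and miR-29c in RPMM (vertical axis, from 0) in each plasma library on Day 60 (left points) and Day 0 (right points), with a line joining the libraries of a heifer, a black line for heifer 17 and bars for the mean ± SD of 11 heifers. The days overlap for each member, and heifer 17 on Day 60 stands above the other libraries for miR-29b (148 RPMM) and miR-29c (1391 RPMM) but not for miR-29a.

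The order of the members was the same in each of the 22 libraries, with miR-29a above miR-29c and miR-29c above miR-29b. The ranges of the members did not overlap on the RPMM scale. Within the family, miR-29a took 85.5 ± 3.48% of the reads on Day 60 and 83.7 ± 2.21% on Day 0, miR-29c took 13.3 ± 3.22% on Day 60 and 15.04 ± 2.14% on Day 0, and miR-29b took 1.15 ± 0.317% on Day 60 and 1.26 ± 0.218% on Day 0 (SD, n = 11 each). The members that lie side by side on chromosome 4 were thus the most and the least abundant. Together the 3 made up 0.362% to 0.844% of all miRNA reads in Day 60 libraries and 0.386% to 0.751% in Day 0 libraries.

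No difference in plasma level between Day 60 and Day 0 passed the test for a member of the miR-29 family. Differential expression was computed with edgeR's quasi-likelihood test over all 195 tested miRNAs, with heifer as a block. FDR stands for its Benjamini-Hochberg adjusted p, called below 0.05, and fold-changes are Day 60 over Day 0. Of the 3 members 0 passed, and 0 had an unadjusted p under 0.05, while 35.4% of all tested miRNAs passed, 17.4% higher and 17.9% lower on Day 60. With library totals the split of calls over all miRNAs was 11 higher and 57 lower. DESeq2 and limma-voom also called 0 of the 3. miR-29a had a log2 fold-change of 0.27 (SE 0.15, 95% interval -0.046 to 0.59, edgeR FDR 0.161), and was higher in 8 of 11 heifers on TMM-normalised reads but in 6 of 11 on RPMM. Its interval allows a fold between 0.968 and 1.504.

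miR-29b and miR-29c lay nearer to 0. miR-29b had a log2 fold-change of 0.086 (SE 0.17, 95% interval -0.27 to 0.44, edgeR FDR 0.699), with 5 of 11 heifers higher on TMM-normalised reads and 4 of 11 on RPMM. miR-29c had a log2 fold-change of 0.041 (SE 0.15, 95% interval -0.28 to 0.36, edgeR FDR 0.824), with 6 of 11 heifers higher on TMM-normalised reads and 3 of 11 on RPMM. On the linear scale the intervals run from 0.830 to 1.36 for miR-29b and from 0.826 to 1.28 for miR-29c. By the size of the log2 fold-change, miR-29a ranked 130th, miR-29b 178th and miR-29c 186th of 195, where the median size over all tested miRNAs was 0.43. Without heifer 17 the signs of miR-29b and miR-29c turned, to -0.025 and -0.037 (edgeR FDR 0.891 and 0.841), and miR-29a was at 0.28 (edgeR FDR 0.207). With the mean level of the 6 erythroid miRNAs as a covariate the log2 fold-changes were 0.24 for miR-29a, -0.011 for miR-29b and -0.078 for miR-29c. In that fit 0 of the 3 passed, beside 6 of all 195 tested miRNAs.

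**Figure D2:**
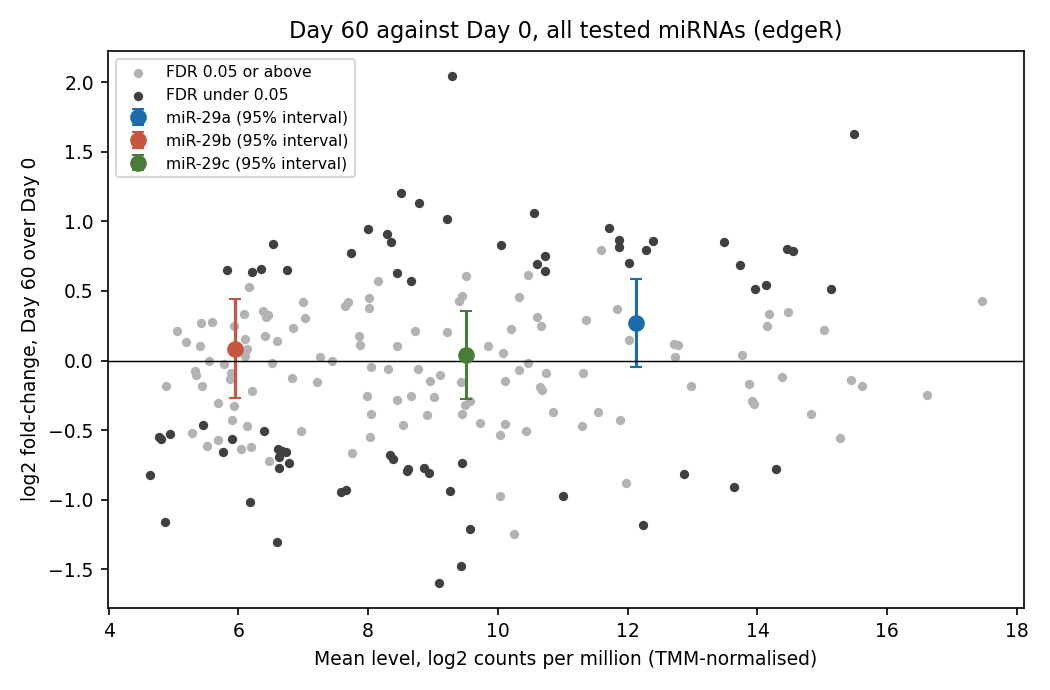
The log2 fold-change of Day 60 over Day 0 (vertical axis) against mean level as log2 CPM from edgeR (horizontal axis) for 195 tested miRNAs, dark where the edgeR FDR is under 0.05, with the miR-29 members in colour and their 95% intervals as bars. All 3 intervals cross 0, at points of 0.27 for miR-29a, 0.086 for miR-29b and 0.041 for miR-29c.

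Within heifers the members did not move as a unit. All 3 were higher on Day 60 in 4 heifers (11, 14, 17 and 24), all 3 were lower in 2 heifers (26 and 29), and the other 5 were mixed, on TMM-normalised reads. On RPMM all 3 were higher in 2 heifers (11 and 24), all 3 were lower in 4 heifers (10, 12, 26 and 29) and 5 were mixed, so this tally depends on the scaling. In heifer 14 miR-29a was 1.09 higher on the log2 scale, against 0.14 for miR-29b and 0.25 for miR-29c. In heifer 17 the pattern was the other way round, with miR-29b at 1.26, miR-29c at 0.77 and miR-29a at 0.090. Heifer 10 had miR-29b at -0.56 beside miR-29a at -0.043 and miR-29c at 0.14. The gaps between members within a heifer, unlike the tally, do not depend on the scaling between libraries. The SD of the within-heifer change on the log2 scale was 0.39 for miR-29a, 0.52 for miR-29b and 0.31 for miR-29c, against a median of 0.69 over the tested miRNAs. From the lowest, these were the 14th, 42nd and 7th of 195.

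**Figure D3:**
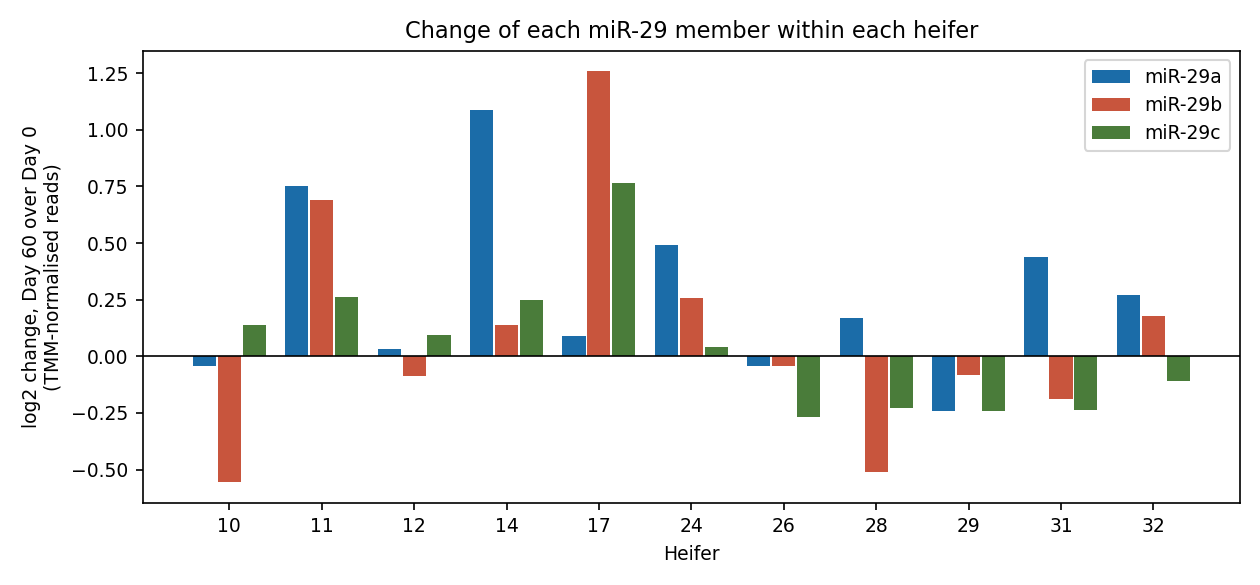
Change of miR-29a, miR-29b and miR-29c (bars, side by side) from Day 0 to Day 60 in each of 11 heifers, as a log2 ratio of TMM-normalised reads (vertical axis). Bars of a heifer often differ in sign, miR-29a leads in heifer 14 (1.09) and miR-29b leads in heifer 17 (1.26).

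The sign of the small differences in miR-29b and miR-29c followed the scaling between libraries. With library totals in place of TMM the log2 fold-changes were 0.081 for miR-29a, -0.10 for miR-29b and -0.15 for miR-29c, and the median over all 195 miRNAs was -0.25, against -0.06 with TMM. With upper quartile factors the median was -0.22. Since a scaling moves all miRNAs nearly alike, distances from the median hardly changed with it. Over 5 scalings miR-29a lay 0.33 to 0.34 above that median, miR-29b 0.14 to 0.16 above and miR-29c 0.099 to 0.11 above. Other settings moved this distance, for miR-29c to 0.0040 with the filter on every library, 0.016 without heifer 17 and -0.076 with the erythroid covariate. Over 23 fits, the first one and 22 alternatives, the FDR was never below 0.0952 for miR-29a, 0.464 for miR-29b and 0.460 for miR-29c, and 0 of these 69 values had an unadjusted p under 0.05.

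**Figure D4:**
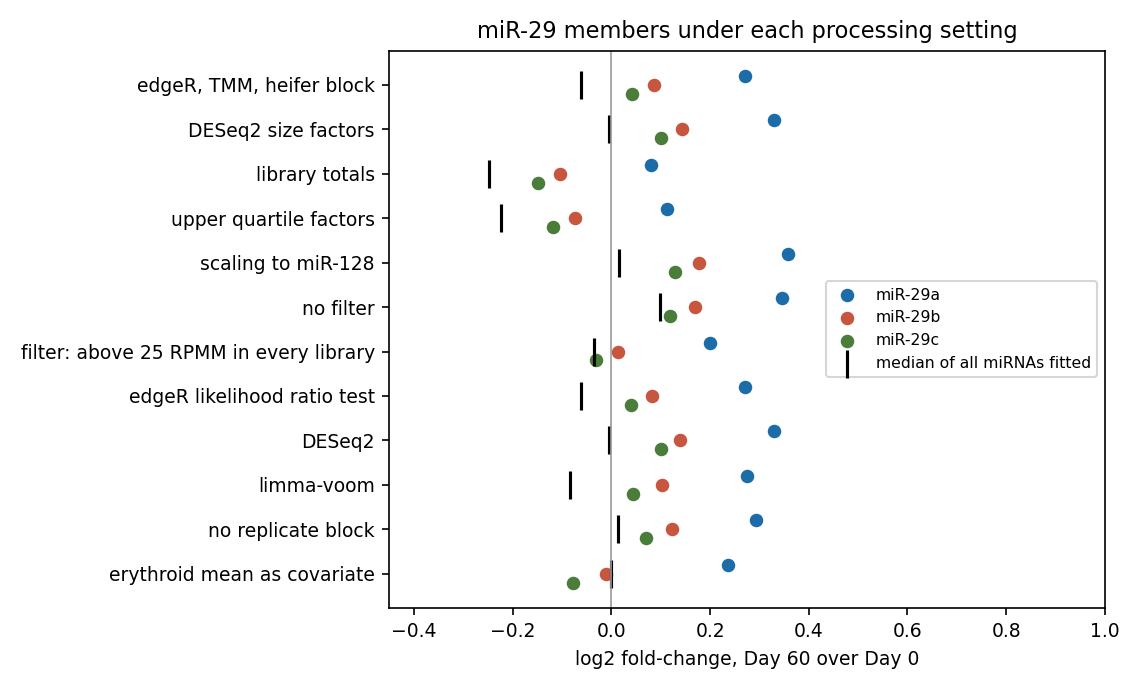
The log2 fold-change of Day 60 over Day 0 (horizontal axis) of miR-29a, miR-29b and miR-29c under each processing setting (rows), with a black mark for the median of all miRNAs in that fit. Over the 5 scalings the points shift together with the median, miR-29a stays to the right of the other members, and with library totals miR-29b (-0.10) and miR-29c (-0.15) lie below 0.

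The balance between members was then compared, since a ratio of reads within a library is free of scaling. miR-29c had a lowest, median and highest ratio of 9.47, 14.96 and 23.5 reads per 100 reads of miR-29a in Day 60 libraries, against 14.7, 17.2 and 24.9 in Day 0 libraries. On Day 60, 5 libraries (heifers 11, 14, 24, 28 and 31) lay below every Day 0 library, and the highest Day 60 ratio was that of heifer 17. The log2 ratio averaged -2.72 ± 0.41 on Day 60 and -2.49 ± 0.23 on Day 0 (SD, n = 11 each). The mean within-heifer difference of -0.23 (SE 0.13, lower in 7 of 11 heifers) did not pass the exact sign-flip permutation test (two-sided p = 0.115, adjusted p = 0.346 over 3 ratios). Without heifer 17 it was -0.32 (SE 0.10, lower in 7 of 10 heifers) and passed (exact sign-flip permutation test, p = 0.0195, adjusted p = 0.0322). With any other single heifer left out it did not pass (same test, adjusted p from 0.229 to 0.633). The adjustment covers the 3 ratios and not the choice of heifer.

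The call for miR-29b beside miR-29a turned on heifer 17 as well. Its lowest, median and highest ratios were 0.928, 1.24 and 2.50 reads per 100 reads of miR-29a in Day 60 libraries, against 1.11, 1.4999 and 1.87 in Day 0 libraries. The log2 ratio of miR-29b to miR-29a differed by -0.18 (SE 0.17, lower in 9 of 11 heifers) and did not pass (exact sign-flip permutation test, two-sided p = 0.319, adjusted p = 0.479). Without heifer 17 the difference was -0.31 (SE 0.11, lower in 9 of 10 heifers) and passed (exact sign-flip permutation test, p = 0.0215, adjusted p = 0.0322). With any other single heifer left out it did not pass (same test, adjusted p from 0.419 to 0.646). Both ratios share the reads of miR-29a, so they are not separate results. On Day 60 heifer 17 had both the fewest total reads and the highest erythroid mean, at 12.99 on the log2 scale. Heifer 14 was next at 12.94, with low ratios of 9.47 reads of miR-29c and 0.966 of miR-29b per 100 of miR-29a. With log2 total reads on Day 60, the log2 ratio of miR-29b to miR-29a had r of -0.560 (permutation p = 0.0906, adjusted p = 0.323) and rho of 0.0727 (permutation p = 0.841, adjusted p = 0.903). Leaving out heifers 17 and 28, r was 0.215. With the erythroid mean on Day 60, this log2 ratio had r of 0.311 (permutation p = 0.359, adjusted p = 0.521) and rho of 0.345 (permutation p = 0.302, adjusted p = 0.661). miR-29b and miR-29c kept closer to each other, at 8.71 ± 1.23 reads of miR-29b per 100 of miR-29c on Day 60 and 8.45 ± 1.62 on Day 0 (SD, n = 11 each), a log2 difference of 0.05 (SE 0.11, exact sign-flip permutation test, p and adjusted p = 0.617). The smallest p of this test with 11 heifers is 0.000977.

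**Figure D5:**
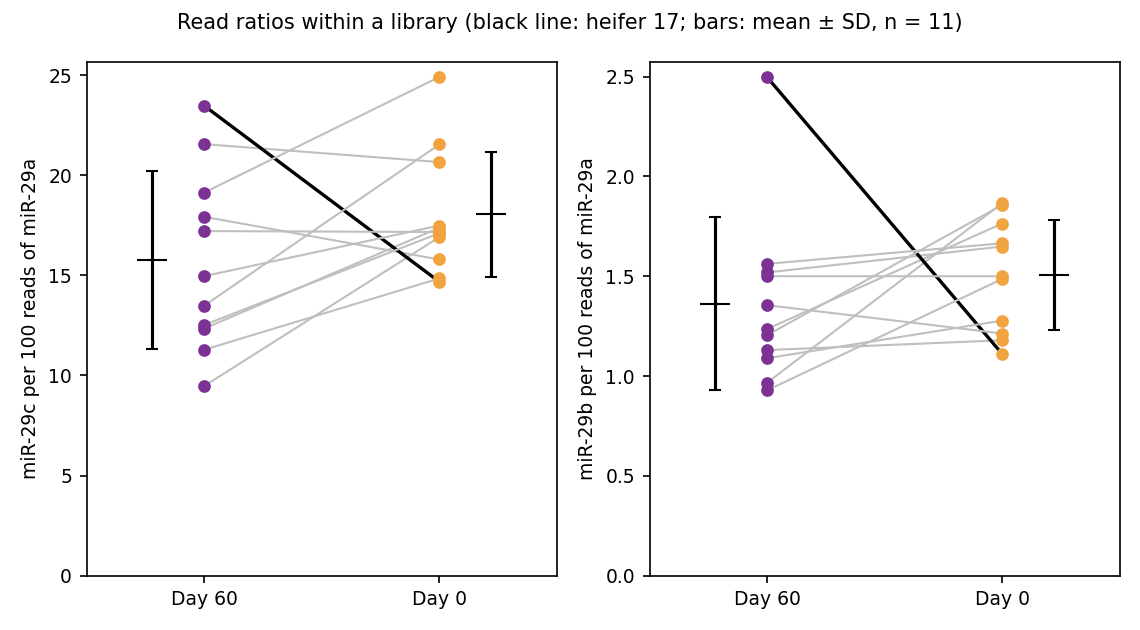
Reads of miR-29c (left) and miR-29b (right) per 100 reads of miR-29a in each library (vertical axes, from 0) on Day 60 (left points) and Day 0 (right points), joined by heifer, with heifer 17 in black and bars for the mean ± SD of 11 heifers. Heifer 17 runs against most other heifers, with the highest ratio of both pairs on Day 60 (23.5 and 2.50).

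The members differed in how widely they spread over libraries. The CV of RPMM over the 22 libraries was 29.8% for miR-29a, 36.3% for miR-29b and 27.7% for miR-29c, against a median of 40.04% over the tested miRNAs, which put them at ranks 48, 77 and 37 of 195 from the lowest. Without heifer 17 that of miR-29b was 22.3%. On Day 60 the CV was 33.3% for miR-29a, 49.1% for miR-29b and 37.1% for miR-29c, against 26.1%, 18.9% and 16.8% on Day 0. The median over the tested miRNAs was 38.2% on Day 60 and 29.7% on Day 0. Much of this gap rested on heifer 17 for miR-29b and miR-29c. Without it the Day 60 CV was 34.8% for miR-29a, 24.1% for miR-29b and 22.3% for miR-29c, a comparison chosen after its levels were seen. On Day 0 miR-29c and miR-29b ranked 15th and 24th of 195 and miR-29a 77th. On Day 60 miR-29a ranked 69th, miR-29c 92nd and miR-29b 153rd. Without heifer 17 these Day 60 ranks were 96th, 22nd and 35th.

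Correlations over 11 heifers covered 29 relations, which were adjusted together. Within a day these were between members, and of members and of the log2 ratios to miR-29a with depth and with the erythroid level. The rest set the Day 60 level of a member against the Day 0 level of the same heifer. By Pearson's r 1 passed after adjustment, and by Spearman's rho 0 did (lowest adjusted permutation p = 0.214). It was that of miR-29b with miR-29c on Day 60, with r of 0.899 (permutation p = 0.0014, adjusted p = 0.0406) and rho of 0.627 (permutation p = 0.0443, adjusted p = 0.214). When heifers 11 and 17 were left out, which lie farthest from the median of miR-29b, r was 0.412, so the relation rests on those heifers. On Day 0 the same pair had r of 0.215 (permutation p = 0.524, adjusted p = 0.661) and rho of 0.0727 (permutation p = 0.838, adjusted p = 0.903). Leaving out heifers 24 and 28, r was 0.0145.

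For the pair listed side by side on chromosome 4, r was positive on both days and passed on neither. miR-29a with miR-29b had r of 0.579 on Day 60 (permutation p = 0.0453, adjusted p = 0.219, rho 0.755 with permutation p = 0.00986 and adjusted p = 0.214) and r of 0.565 without heifers 11 and 14. On Day 0 it had r of 0.530 (permutation p = 0.0915, adjusted p = 0.323, rho 0.364 with permutation p = 0.274 and adjusted p = 0.661) and r of 0.0426 without heifers 28 and 29. For the 12 relations of a member with log2 total reads or with the erythroid mean, the lowest adjusted permutation p of Pearson's r was 0.161. It belonged to miR-29c with log2 total reads on Day 60, with r of -0.796 (permutation p = 0.0182) and rho of -0.309 (permutation p = 0.358, adjusted p = 0.661). Leaving out heifers 17 and 28 gave r of -0.365. The Day 60 level of miR-29c went with the Day 0 level of the same heifer at r of 0.506 (permutation p = 0.109, adjusted p = 0.323) and rho of 0.636 (permutation p = 0.0399, adjusted p = 0.214), and r was 0.598 when heifers 14 and 29 were left out. For miR-29a this r was 0.441 (permutation p = 0.171, adjusted p = 0.381) and rho was 0.509 (permutation p = 0.114, adjusted p = 0.401), with r of 0.476 when heifers 28 and 29 were left out. For miR-29b it was -0.112 (permutation p = 0.737, adjusted p = 0.855) and rho was -0.109 (permutation p = 0.754, adjusted p = 0.903), with r of -0.067 when heifers 24 and 28 were left out. A heifer with a high level on Day 0 was thus not shown to keep it on Day 60. On log2 RPMM in place of TMM-normalised levels, 3 more of the relations of members passed, each at an adjusted permutation p of 0.0426. They were miR-29a with miR-29b on Day 60 (r = 0.701), miR-29a with miR-29c on Day 0 (r = 0.761) and miR-29c with log2 total reads on Day 60 (r = -0.815).

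The miRNAs with the pattern most like that of each member were then listed. As a description, log2 levels over the 22 libraries were compared after removing the mean of each day, and libraries of a heifer and of a depth are shared by all miRNAs. miR-29a was most like miR-142-5p (r = 0.694), let-7a-3p (r = 0.688) and miR-335 (r = 0.648), while miR-29b and miR-29c held the 9th and 12th places of its list. miR-142-5p is known from leukocytes, and its own log2 fold-change of 0.51 passed the test (edgeR FDR 0.0166). It did not pass with library totals (edgeR FDR 0.0910), without heifer 11 (edgeR FDR 0.0536) or 28 (edgeR FDR 0.0512), or with the erythroid covariate. miR-335 is also the nearest listed miRNA of another family to miR-29a on chromosome 4, at 333121 bases. miR-29b was most like miR-32 (r = 0.745), miR-29c (r = 0.745), miR-24-3p (r = 0.721) and miR-342 (r = 0.701), with miR-29a in the 11th place. miR-29c was most like miR-29b, followed by miR-148b (r = 0.709), miR-193a-3p (r = 0.610) and miR-24-3p (r = 0.608), with miR-29a in the 15th place. The likeness of miR-29b and miR-29c over the 22 libraries includes heifers 11 and 17 on Day 60, on which their relation on that day rested, and r of the pair on Day 0 was 0.215.

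Other miRNAs known from work on matrix and fibrosis in human and mouse gave a background to the family. Among 14 that are described there as antifibrotic, 11 were tested, of which 4 were higher on Day 60 and 0 were lower. Over all tested miRNAs 17.4% were higher, 17.9% were lower and 35.4% passed in either direction. The 4 of 11 is near the share in either direction, but all 4 were higher, a larger share than the 17.4%. The list was not tested as a set. The median log2 fold-change of the list was 0.43, against -0.06 over all tested miRNAs. The 4 were miR-19b, miR-26a, miR-101 and miR-150. miR-26a averaged 13805 ± 6231 RPMM on Day 60 and 9040.0 ± 4581 RPMM on Day 0 (SD, n = 11 each; log2 fold-change 0.85, edgeR FDR 0.0220). miR-19b averaged 1912 ± 791 RPMM on Day 60 and 1036 ± 443 RPMM on Day 0 (SD, n = 11 each; log2 fold-change 1.06, edgeR FDR 0.0108). miR-101 (log2 fold-change 0.80, edgeR FDR 0.0238) and miR-150 (log2 fold-change 0.80, edgeR FDR 0.0166) were the other two. miR-150 is abundant in lymphocytes and is also on the leukocyte list. With library totals 1 of the 11 was higher and 1 was lower, without heifer 28 2 were higher, without heifer 32 5 were higher and 3 were lower, and with the erythroid covariate 0 passed. Over all 195 tested miRNAs, 68 passed with library totals, 35 without heifer 28, 97 without heifer 32 and 6 with the erythroid covariate.

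Of 6 miRNAs described as profibrotic, 5 were tested, of which 1 was higher and 1 was lower. Each of these counts is near the 17.4% higher and 17.9% lower over all tested miRNAs. The median of their log2 fold-changes was -0.18. The higher one was miR-155, a miRNA of activated immune cells, at 477 ± 200 RPMM on Day 60 and 249.5 ± 126 RPMM on Day 0 (SD, n = 11 each; log2 fold-change 1.21, edgeR FDR 0.00837). The lower one was miR-199a-5p, known from fibroblasts, at 268 ± 89.9 RPMM on Day 60 and 529 ± 187 RPMM on Day 0 (SD, n = 11 each; log2 fold-change -0.78, edgeR FDR 0.0283). miR-214 had a log2 fold-change of -0.72 (edgeR FDR 0.0554) and miR-21-5p, the best known of the group, one of 0.35 (edgeR FDR 0.0700). The call of miR-199a-5p was lost when heifer 10, 11, 17, 28 or 29 was left out, with scaling to miR-128 and with no filter, and with the erythroid covariate 0 of the 5 passed. With that covariate 6 of all 195 tested miRNAs passed. Both lists were chosen with results of these data known, so their directions are no independent evidence.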

How the data were processed

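Small RNA of plasma from 11 heifers on Day 60 and Day 0 was made into TruSeq libraries and sequenced on the Illumina platform. Read counts of each mature miRNA were deposited, made by the authors with sRNAbench, which maps with Bowtie (0.12.9) to bosTau4 and assigns by miRBase. A normalised signal in RPMM was deposited as well, where the rows of each species have a scaling of their own. It served only as an alternative for ratios. RPMM here are scaled to all miRNA reads of the library. Scaled to miR-29a of the same library, the deposited values of miR-29b and miR-29c matched their counts within 0.2% in all 22 libraries. No miRNA sequence was used here.

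A miRNA was tested if it exceeded 25 RPMM in over 8 libraries on Day 60 or on Day 0. The test was the quasi-likelihood test of edgeR 4.0.16 (R 4.3.3) with TMM factors, a block for heifer and Benjamini-Hochberg adjustment. The labels give the animal, which pairs the libraries. Own-heifer libraries correlated at a mean of 0.147 in their deviations from the mean of the day, from -0.309 to 0.582, against -0.00563 with other heifers. Log2 ratios carried a pseudocount of 0.5 reads and were tested over 2048 sign patterns. Correlations used log2 levels with a prior count of 1 and 100000 permutations. Alternatives were other scalings and filters, DESeq2 1.42.0, limma 3.58.1, likelihood ratio tests, no block, an erythroid covariate and each heifer left out. Other steps ran in Python 3.11.15 with scipy 1.17.1, numpy 2.4.6 and pandas 2.3.3, and plots in matplotlib 3.10.9. Steps were tested on simulated data.

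The members and the lists (erythroid, leukocyte, hepatocyte, muscle, mesenchymal, antifibrotic and profibrotic miRNAs) were chosen with earlier results of these data known. Named miRNAs were the members, other miR-29 entries, the 3 most alike miRNAs of each member, the nearest listed neighbours, red cell markers, and those of the antifibrotic and profibrotic lists that passed. miR-214, miR-21-5p, miR-16b, miR-143, miR-122 and miR-133a were added after values were seen. So were the Day 60 CV without heifer 17 and the relations of the ratios with depth and erythroid level.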

Additional observations from a re-analysis of the deposited data

How the results depend on the processing

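miR-29a kept a positive log2 fold-change and an FDR above the threshold in all 22 alternatives to the edgeR fit, from 0.18 to 0.31 with each heifer left out. The sign of miR-29b turned with library totals (-0.10), upper quartile factors (-0.073) and the erythroid covariate (-0.011), with -0.025 to 0.15 when each heifer was left out. That of miR-29c turned with library totals (-0.15), upper quartile factors (-0.12), the filter on every library (-0.032) and the erythroid covariate (-0.078), with -0.037 to 0.075 when each heifer was left out. The cause was not tested. Without the replicate block the log2 fold-changes were 0.29, 0.12 and 0.07 for miR-29a, miR-29b and miR-29c, the ratios kept an adjusted p of 0.364 or more, and the block changed no call of a member. The count of 69 tested miRNAs past the threshold was 6 with the erythroid covariate and 35 to 97 with each heifer left out, at 44 when heifer 10 was left out, 43 for heifer 11 and 35 for heifer 28. The difference in log2 ratio ran from -0.32 to -0.17 for miR-29c to miR-29a, from -0.31 to -0.10 for miR-29b to miR-29a and from 0.0093 to 0.13 for miR-29b to miR-29c with each heifer left out. With RPMM in place of TMM, r of miR-29c on Day 0 turned to -0.313 with log2 total reads and to -0.256 with the erythroid mean. Depth limits miR-29b most, at 45 reads in the shallowest library.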

Other observations

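A further family gene, miR-29d, gave traces in plasma. miR-29d-5p, on chromosome 16 of bosTau4 from 73970405 to 73970425, 83114 bases from miR-29c, had 0 to 117 reads in Day 60 libraries and 10 to 66 reads in Day 0 libraries, with medians of 5.57 RPMM on Day 60 and 8.36 RPMM on Day 0. The 0 was that of heifer 17 on Day 60, where 3 reads of 304117 allow up to 9.86 RPMM. miR-29d-3p, from 73970443 to 73970464, had 0 to 5 reads in Day 60 libraries and 0 to 6 in Day 0 libraries. Its 6 reads in heifer 14 on Day 0 stand beside a deposited RPMM that equals that of heifer 24 on Day 0 and not that of its own library, so this count is in doubt. Neither arm passed the filter on low levels. For miR-29d the 5p arm was thus the more abundant one in 21 of 22 libraries.

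The log2 ratio of miR-29c to miR-29a on Day 0 went with the erythroid mean over 11 heifers, a relation looked at after the ratios were seen, with r of 0.753 (permutation p = 0.00729, adjusted p = 0.106), rho of 0.718 (permutation p = 0.0161, adjusted p = 0.214) and r of 0.672 without heifers 12 and 17. With the erythroid mean on log2 RPMM, r was 0.778 (adjusted permutation p = 0.0426). On Day 60 r was 0.0812 (permutation p = 0.808, adjusted p = 0.883), rho was 0.300 (permutation p = 0.369, adjusted p = 0.661) and r was 0.219 without heifers 14 and 17. The difference between the days was not tested.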
